A study of Mus musculus with 9 samples.

Results

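The genes described are 10 products of the neutrophil lineage. The 4 primary (azurophil) granule genes are Mpo, Elane, Prtn3 and Ctsg, the 4 secondary (specific) granule genes are Ltf, Lcn2, Camp and Ngp, and the cytosolic pair is S100a8 and S100a9. They were taken by symbol from the transcript clusters that pair with a single gene symbol, and each had 1 such cluster, so 10 of 21789 clusters and 10 of 19938 genes are described. RNA levels were measured on 9 Affymetrix Mouse Gene ST 1.0 arrays of bone marrow from young adult mice of strain C57Bl/6J. Stromal cells were sorted as CD45-Lin-CD54+BP1+, a gate that leaves out leucocytes and lineage-positive cells, from mice aged 6 to 12 weeks. In 3 arrays these cells were YFP-positive and came from mice of genotype IL7-Cre Transgenic/Rosa-eYFP hetero, in which YFP reports present or past activity of a Cre under Il7 control. In 1 array they were the YFP-negative cells of the gate from that genotype, and in 3 arrays they were the whole gate from wild-type mice. The other 2 arrays held total bone marrow of wild-type mice, the source in which neutrophils and their precursors are common, as the control. RNA came from 1800 to 10000 cells in the replicated sorts, from 2300 cells in the YFP-negative sort and from a 10 ng aliquot for total marrow. The labels do not say whether replicates were separate animals, so p-values measure the spread between these samples, which may be technical.

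Neutrophil granules are filled one kind after another as the cell matures in the marrow. Primary granules are made first, at the promyelocyte stage, and carry myeloperoxidase and serine proteases, whereas secondary granules follow at the myelocyte and metamyelocyte stages and carry lactoferrin, lipocalin and cathelicidin. Transcription of the granule genes precedes the mature cell and largely ceases in blood neutrophils. S100a8 and S100a9 encode the subunits of calprotectin, a calcium-binding and metal-binding complex that fills the cytosol of neutrophils and monocytes rather than a granule. In bulk RNA, fewer cells of a type and less RNA per cell cannot be told apart.

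The 250 bases upstream of the annotated start are shown for the granule genes because the primary and the secondary class are made at different stages. All 10 genes matched an entry of the RefSeq promoter table (assembly GRCm38.p6). The sequences below run 5′ to 3′ on the strand of the gene, and capitals mark any of 3 motifs searched on both strands: AGGAAGT, a form of the site of Ets factors such as PU.1; AACGG, the core of a Myb site; and GCAAT, a C/EBP half-site. The motifs were chosen after these sequences had been read, and no marked motif overlaps another. The primary sequences lie at chr11:87793534-87793783 (plus strand) for Mpo, chr10:79886062-79886311 (plus strand) for Elane, chr10:79879417-79879666 (plus strand) for Prtn3 and chr14:56102575-56102824 (minus strand) for Ctsg.
Mpo: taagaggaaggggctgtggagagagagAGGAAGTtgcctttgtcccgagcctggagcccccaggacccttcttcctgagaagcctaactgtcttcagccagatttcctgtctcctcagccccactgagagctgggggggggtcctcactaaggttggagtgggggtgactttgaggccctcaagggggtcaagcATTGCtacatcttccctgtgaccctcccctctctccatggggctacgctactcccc
Elane: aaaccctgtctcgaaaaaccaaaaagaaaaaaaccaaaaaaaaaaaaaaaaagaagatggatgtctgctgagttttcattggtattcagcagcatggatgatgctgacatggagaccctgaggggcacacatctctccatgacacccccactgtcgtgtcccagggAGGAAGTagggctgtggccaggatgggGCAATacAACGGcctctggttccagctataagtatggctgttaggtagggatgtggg
Prtn3: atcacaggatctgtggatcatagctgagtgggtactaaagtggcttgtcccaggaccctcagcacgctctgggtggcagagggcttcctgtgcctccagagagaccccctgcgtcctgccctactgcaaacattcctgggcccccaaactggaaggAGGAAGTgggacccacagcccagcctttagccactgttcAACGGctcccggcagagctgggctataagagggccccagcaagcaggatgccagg
Ctsg: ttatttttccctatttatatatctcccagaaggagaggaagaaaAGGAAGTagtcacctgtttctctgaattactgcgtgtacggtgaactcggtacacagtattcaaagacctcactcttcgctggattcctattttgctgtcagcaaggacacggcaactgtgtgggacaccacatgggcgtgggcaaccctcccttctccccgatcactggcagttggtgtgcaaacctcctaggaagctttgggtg

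The secondary sequences lie at chr9:111019042-111019291 (plus strand) for Ltf, chr2:32387740-32387989 (minus strand) for Lcn2, chr9:109849457-109849706 (minus strand) for Camp and chr9:110419558-110419807 (plus strand) for Ngp.
Ltf: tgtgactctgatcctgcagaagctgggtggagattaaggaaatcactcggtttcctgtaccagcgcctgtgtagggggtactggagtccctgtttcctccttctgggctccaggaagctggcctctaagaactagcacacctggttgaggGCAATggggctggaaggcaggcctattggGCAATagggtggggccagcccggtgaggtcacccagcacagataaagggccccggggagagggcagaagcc
Lcn2: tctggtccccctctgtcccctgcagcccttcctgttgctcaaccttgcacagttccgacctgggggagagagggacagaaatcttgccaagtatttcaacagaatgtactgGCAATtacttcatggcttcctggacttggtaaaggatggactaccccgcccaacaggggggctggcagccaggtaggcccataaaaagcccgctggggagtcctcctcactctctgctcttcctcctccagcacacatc
Camp: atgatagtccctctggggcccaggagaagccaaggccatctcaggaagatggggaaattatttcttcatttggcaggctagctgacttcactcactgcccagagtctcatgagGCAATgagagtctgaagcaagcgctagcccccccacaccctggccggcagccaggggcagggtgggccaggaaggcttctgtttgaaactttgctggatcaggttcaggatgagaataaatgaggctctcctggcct
Ngp: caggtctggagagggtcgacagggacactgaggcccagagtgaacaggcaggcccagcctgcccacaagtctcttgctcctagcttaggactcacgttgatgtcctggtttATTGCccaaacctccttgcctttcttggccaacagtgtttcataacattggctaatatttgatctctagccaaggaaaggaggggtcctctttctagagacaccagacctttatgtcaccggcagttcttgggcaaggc

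AGGAAGT stood in 4 of 4 primary sequences and in 0 of 4 secondary sequences, against 7.69% of 32851 promoters of the same length in that table. In Elane and Prtn3, which are neighbouring genes, it lay 84 to 78 and 94 to 88 bases before the start, with AACGG 50 to 46 and 55 to 51 bases before it. AACGG was in these 2 primary genes and in 0 of 4 secondary genes, against 14.5% of promoters. GCAAT stood in both classes, in 4 of 4 secondary genes and in 2 of 4 primary genes, against 23.1% of promoters. Ltf held GCAAT at 2 places. S100a8 held both AGGAAGT and GCAAT, and S100a9 held GCAAT. Since the motifs were chosen after these sequences had been read, these matches only describe letters in this window. They test no difference between the classes and show no binding.

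The label of the sorted cells was checked first. All 8 stromal markers listed for the check (Lepr, Cxcl12, Kitl, Adipoq, Pdgfrb, Ebf3, Foxc1 and Igfbp5) were called higher than total marrow in both replicated sorted groups, and Ptprc, which encodes CD45, stood at 3.60 to 3.80 in the 6 arrays of these groups against 9.69 and 9.75 in total marrow. Values are log2 signals, so a difference of 1 is a 2-fold difference. Array medians lay between 4.51 and 4.60 except for the YFP-negative array at 3.46, whose values were therefore compared after cyclic loess normalization of the 9 arrays. YFP-positive replicate 3 had the lowest weight of the 9 arrays in limma's array weights (0.311, against 0.613 to 1.69 in the others), so results that change without it are given both ways. The median of all deposited values, 4.43, serves as a stated cut: where the lower group of a comparison lies under it, the difference is read as a lower bound.

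In sorted stroma the granule genes were far below their level in total marrow, with fitted differences of −4.02 to −6.88 log2 units in YFP-positive cells and of −5.49 to −8.46 in wild-type cells. Of the 10 members, 8 were called lower in YFP-positive cells (limma, Benjamini-Hochberg adjusted p under 0.05), against 18.5% of all clusters called lower. In wild-type cells 9 of 10 were called lower, against 13.9% of all clusters. Every primary and every secondary member was called in both groups, and the members not called were S100a8 in both and S100a9 in YFP-positive cells. All 10 members had every YFP-positive and every wild-type array below both total marrow arrays, which held for 27.1% and 28.2% of all clusters. Without YFP-positive replicate 3, 8 of 10 members were called lower in YFP-positive cells as well. Both comparisons use the same 2 total marrow arrays.

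**Figure D1:**
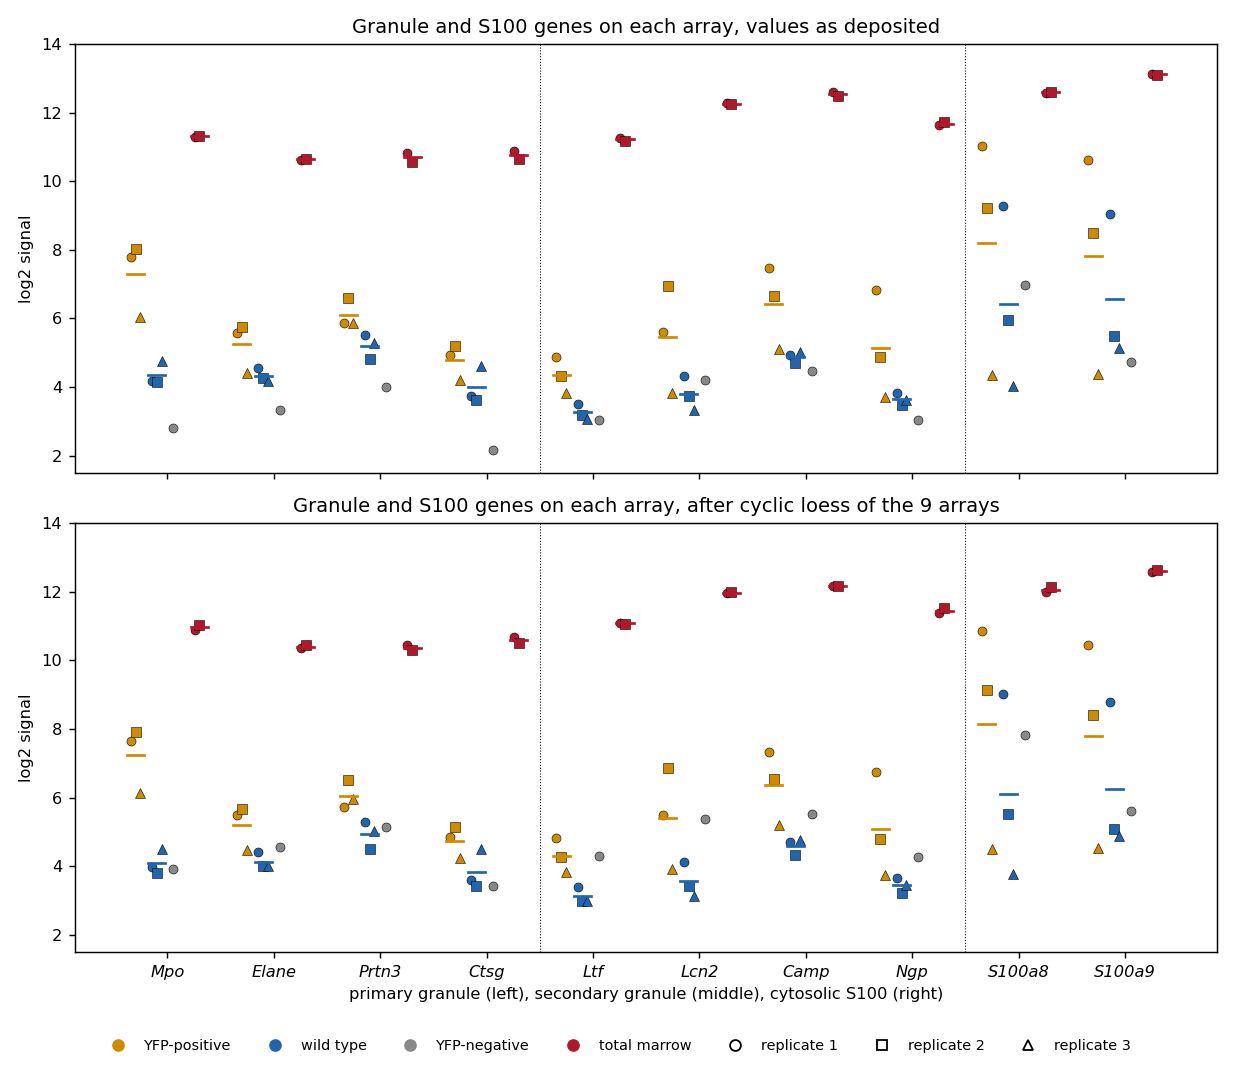
Log2 signal of the 10 genes (horizontal axis) on each of the 9 arrays, as deposited (upper panel) and after cyclic loess normalization (lower panel); colours give the group, symbols the replicate and bars the group mean. Total marrow points lie above all sorted points of the same gene. In measured signal the S100 genes spread far more between sorted arrays than the granule genes, several of which lie under 4.43 there as deposited.

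Mpo encodes myeloperoxidase, the haem enzyme of primary granules that makes hypochlorous acid. Its deposited signal was 7.80, 8.01 and 6.06 in YFP-positive cells, 4.19, 4.14 and 4.76 in wild-type cells and 11.29 and 11.33 in total marrow. All YFP-positive arrays lay above all wild-type arrays and below both marrow arrays, so the 3 groups did not overlap. Mpo was lower than in total marrow by a fitted difference of −4.02 (SE 0.54, limma adjusted p = 0.00102) in YFP-positive cells and of −6.95 (SE 0.54, adjusted p = 4.41e-05) in wild-type cells. Of the granule genes it had the smallest fall in YFP-positive cells.

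Elane, Prtn3 and Ctsg encode the granule serine proteases neutrophil elastase, proteinase 3 and cathepsin G. Elane stood at 5.59, 5.74 and 4.41 in YFP-positive, 4.57, 4.27 and 4.17 in wild-type and 10.63 and 10.64 in total marrow arrays. Only 1 YFP-positive array, replicate 3, reached into the wild-type range. Prtn3 stood at 5.86, 6.61 and 5.87, at 5.50, 4.83 and 5.28, and at 10.83 and 10.57 in the same order, and its 3 groups did not overlap. Ctsg stood at 4.93, 5.20 and 4.20, at 3.73, 3.63 and 4.63, and at 10.89 and 10.64, with wild-type replicate 3 above YFP-positive replicate 3.

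All 3 proteases were called lower than total marrow in both sorted groups. The differences were −5.39 (SE 0.37) for Elane, −4.59 (SE 0.28) for Prtn3 and −5.99 (SE 0.37) for Ctsg in YFP-positive cells, with limma adjusted p from 1.22e-05 to 2.25e-05. In wild-type cells they were −6.30, −5.49 and −6.77, with adjusted p from 4.08e-06 to 8.53e-06. The wild-type means of Mpo, Elane and Ctsg lay under 4.43, so those differences are lower bounds, while Prtn3 stayed above it in both groups.

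Among the secondary granule genes, Lcn2 encodes lipocalin-2, which binds bacterial siderophores. It stood at 5.62, 6.95 and 3.84 in YFP-positive, 4.33, 3.74 and 3.35 in wild-type and 12.29 and 12.24 in total marrow arrays. YFP-positive replicate 3 lay within the wild-type range and the other YFP-positive arrays above it. The wild-type difference from total marrow, −8.46 (SE 0.78, limma adjusted p = 0.000119), is a lower bound, since the wild-type mean of 3.80 lay under 4.43. The YFP-positive difference was −6.80 (SE 0.78, limma adjusted p = 0.000418).

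Camp encodes cathelicidin, an antimicrobial peptide precursor. Its signal was 7.49, 6.64 and 5.12 in YFP-positive, 4.93, 4.71 and 5.04 in wild-type and 12.60 and 12.49 in total marrow arrays, and the groups did not overlap, although YFP-positive replicate 3 and wild-type replicate 3 were close. Camp was the only secondary member with a mean over 4.43 in wild-type cells. Its differences from total marrow were −6.13 (SE 0.58, limma adjusted p = 0.000148) in YFP-positive and −7.65 (SE 0.58, adjusted p = 3.81e-05) in wild-type cells.

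Ltf encodes lactoferrin, the iron-binding protein of secondary granules, and Ngp encodes neutrophilic granule protein, a cystatin-related protein. Ltf stood at 4.88, 4.34 and 3.82 in YFP-positive, 3.52, 3.18 and 3.09 in wild-type and 11.27 and 11.18 in total marrow arrays, with no overlap between groups. Ngp stood at 6.83, 4.89 and 3.70, at 3.83, 3.49 and 3.62, and at 11.63 and 11.73, and its YFP-positive arrays ran from within the wild-type range to well above it. Ltf differed from total marrow by −6.88 (SE 0.29) in YFP-positive and −7.96 (SE 0.29) in wild-type cells, with limma adjusted p of 1.45e-06 and 6.37e-07. The differences for Ngp were −6.54 (SE 0.76) and −8.03 (SE 0.76), with limma adjusted p of 0.000447 and 0.000139. Ltf lay under 4.43 in both sorted groups and Ngp in wild-type cells, so these are lower bounds.

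The measured signal of the cytosolic pair varied more between arrays of one group than that of the granule genes did. S100a8 stood at 11.01, 9.21 and 4.36 in YFP-positive, 9.29, 5.96 and 4.04 in wild-type and 12.56 and 12.61 in total marrow arrays. S100a9 stood at 10.60, 8.49 and 4.39, at 9.04, 5.50 and 5.14, and at 13.14 and 13.09. In both sorted groups both genes were highest in replicate 1, lower in replicate 2 and lowest in replicate 3. The cause of this order was not tested. The same 3 sorted arrays, YFP-positive 1 and 2 and wild-type 1, held the highest values of both genes, so high and low arrays occurred in both sorted groups. S100a8 and S100a9 are neighbours in the genome. S100a8 differed from total marrow by −4.39 in YFP-positive cells (SE 2.05, 95% interval −9.18 to 0.39, limma adjusted p = 0.152) and by −6.16 in wild-type cells (SE 2.05, 95% interval −10.95 to −1.38, adjusted p = 0.0698). S100a9 differed by −5.28 in YFP-positive cells (SE 1.81, limma adjusted p = 0.0641) and by −6.55 in wild-type cells (SE 1.81, adjusted p = 0.0339), and the call in wild-type cells was lost when wild-type replicate 2 or 3 or either total marrow array was left out (adjusted p from 0.0969 to 0.162). Calls were also gained: S100a8 in wild-type cells was called in 8 of the alternatives (limma adjusted p from 0.0105 to 0.0484) and S100a9 in YFP-positive cells in 5 (adjusted p from 0.023 to 0.0384). Their standard errors, 1.81 and 2.05, compare with 0.28 to 0.78 for the granule genes. Most granule genes had sorted values under 4.43, which can narrow their measured spread.

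**Figure D2:**
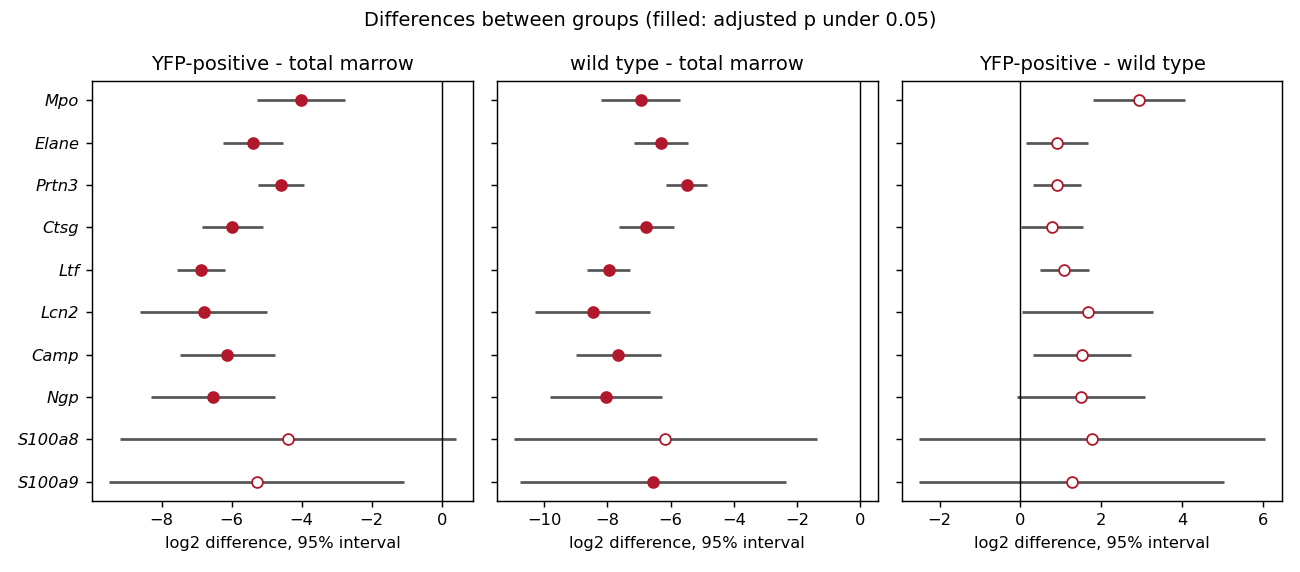
Log2 differences between groups (horizontal axis) for the 10 genes as deposited, with 95% intervals from limma; filled points have an adjusted p under 0.05 over all 21789 clusters. The granule genes are called lower than total marrow in both sorted groups, the intervals of S100a8 and S100a9 are the widest, and 0 points are filled for YFP-positive minus wild type.

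The spread of S100a8 between arrays of one sort was among the largest of the whole array. Its range over the 6 YFP-positive and wild-type arrays was 6.98 log2 units, rank 1 of 21789 clusters, and that of S100a9 was 6.22, rank 3, against a median range of 0.62. The lowest S100a8 and S100a9 values, 4.04 and 4.39, lay under the stated cut, so the ranges are lower bounds and the ranks are those of measured signal. Within a single group the ranks were 2 and 3 in YFP-positive cells (ranges 6.65 and 6.22) and 1 and 3 in wild-type cells (5.25 and 3.90). The granule genes had smaller measured ranges over the 6 arrays, from 3.87 for Mpo (rank 38) to 1.57 for Elane (rank 2017). Lcn2 ranged over 3.60 (rank 61) and Ngp over 3.34 (rank 94). The lowest values of Mpo, Elane, Ctsg, Ltf, Lcn2 and Ngp also lay under the cut, so their ranges are lower bounds too. Prtn3 (range 1.78) and Camp (2.78) stayed over it on all 6 arrays. In the 2 total marrow arrays the 10 members differed by 0.02 to 0.26.

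**Figure D3:**
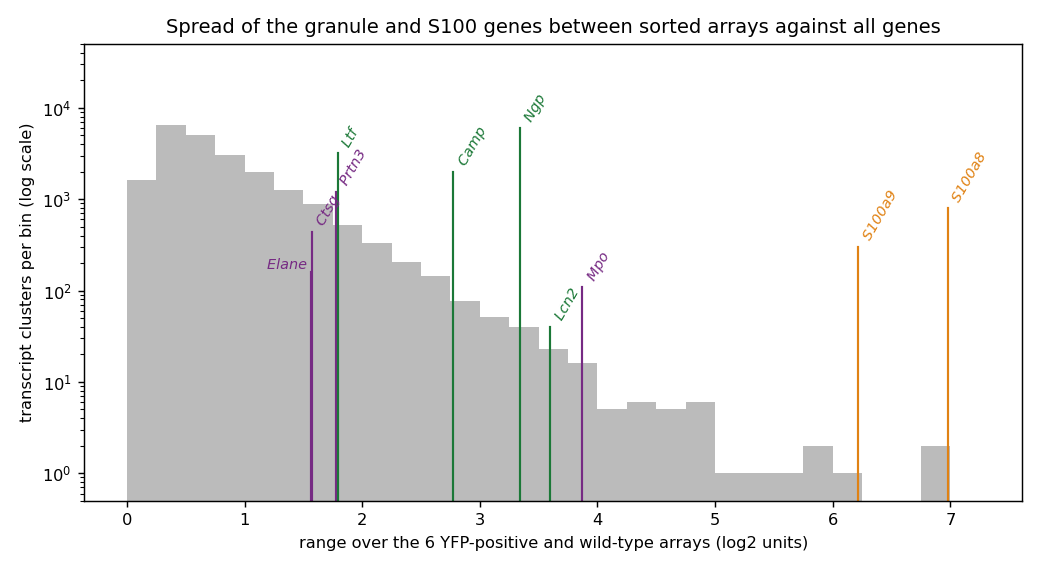
Number of transcript clusters (vertical log axis) by range of log2 signal over the 6 YFP-positive and wild-type arrays (horizontal axis), with coloured lines at the 10 genes; line height only separates the labels. S100a8 and S100a9 lie at 6.98 and 6.22, at the far end of the distribution, and the granule genes between 1.57 and 3.87.

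Array by array, each class was set against its own mean in total marrow, after cyclic loess so that the YFP-negative array could be included. The classes start from different marrow levels, with class means of 10.60 and 10.57 in the 2 marrow arrays for the primary genes and of 11.65 and 11.69 for the secondary genes, and in sorted cells members of both lay under the stated cut, so their distances are given side by side and not compared. The primary class mean was −4.65, −4.28 and −5.38 from total marrow in YFP-positive and −6.27, −6.66 and −6.07 in wild-type arrays. The secondary class mean was −5.57, −6.05 and −7.49, and −7.69, −8.17 and −8.08. Replicate 3 of the YFP-positive cells was the lowest of its group for all 3 classes. In wild-type cells 3 of 4 primary members (Mpo, Elane and Ctsg) and 3 of 4 secondary members (Ltf, Lcn2 and Ngp) had deposited means under the stated cut, so the distances of both classes are lower bounds there. In the YFP-negative array the class means were 4.26 for the primary and 4.87 for the secondary genes, at −6.33 and −6.80 from total marrow.

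In measured signal the S100 pair moved over a far wider span from array to array. Its class mean was −1.68, −3.55 and −7.82 in YFP-positive and −3.43, −7.01 and −7.99 in wild-type arrays. The pair was nearest to total marrow in YFP-positive replicate 1, wild-type replicate 1 and YFP-positive replicate 2, in that order. By comparison rather than by array, the median difference from total marrow was −4.99 for the primary, −6.67 for the secondary and −4.84 for the cytosolic class in YFP-positive cells, with 0.09 over all clusters. The cytosolic median was −3.02 without YFP-positive replicate 3 and −6.24 without YFP-positive replicate 1. In wild-type cells the medians were −6.53, −7.99 and −6.36, with 8.6e-05 over all clusters.

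**Figure D4:**
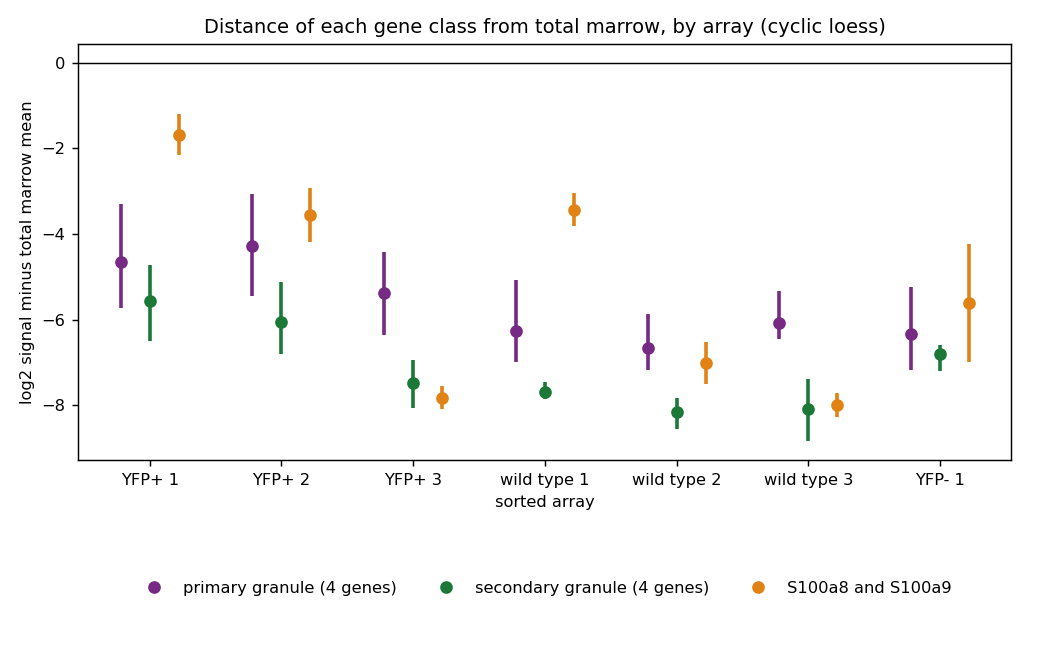
Mean log2 signal of each class minus its mean in total marrow (vertical axis, cyclic loess values) on the 7 sorted arrays; points are class means and bars run from the lowest to the highest gene of the class. The S100 pair runs from −1.68 to −7.99, while the primary means lie between −4.28 and −6.66 and the secondary means between −5.57 and −8.17. The classes start from different marrow levels, and most granule genes lie under the cut on some arrays.

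The 2 replicated sorted groups were also set against each other, without a control array. The mean of every member was higher in YFP-positive cells, but 0 of 10 members were called, as 0 of 21789 clusters (0%) were at an adjusted p under 0.05 with limma. At an unadjusted p under 0.05, 7 of 10 members were higher, beside 1263 clusters (5.8%) higher and 3250 (14.9%) in either direction. Mpo, Prtn3, Ltf and Camp had every YFP-positive array above every wild-type array, which held for 13% of all clusters. Ltf did so with both group means under 4.43. The class medians were 0.91 for the primary, 1.51 for the secondary and 1.52 for the cytosolic genes, with 0.05 over all clusters. Leaving out 1 replicate, the cytosolic median ran from 0.12 without YFP-positive replicate 1 to 3.34 without YFP-positive replicate 3, and the secondary median from 0.90 to 2.19. Values within the groups overlapped for the other 6 members.

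The difference for Mpo, 2.93 (SE 0.48, 95% interval 1.80 to 4.06), had a limma adjusted p of 0.104, and is a lower bound because the wild-type mean lay under 4.43. Without YFP-positive replicate 3 the difference was 3.54 and the adjusted p 0.0246, with Mpo the 1 cluster called of 21789, and this was the single alternative in which a member was called. The other granule genes differed by 0.78 (Ctsg) to 1.66 (Lcn2), with limma adjusted p from 0.205 for Ltf to 0.346 for Ngp. The wild-type means of Elane, Ctsg, Lcn2 and Ngp also lay under 4.43, so their differences are lower bounds. For Ltf both means, 4.35 and 3.26, lay under it, so no size is read from its difference. S100a8 differed by 1.77 (95% interval −2.51 to 6.05, adjusted p = 0.624) and S100a9 by 1.27 (95% interval −2.50 to 5.03, adjusted p = 0.689), so neither a rise nor a fall of several log2 units could be distinguished from 0. Without YFP-positive replicate 1 the S100a9 difference was −0.12.

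The single YFP-negative array gave values without a replicate check of its own, and its spread was taken from the other groups. After cyclic loess, Mpo stood at 3.91, Elane at 4.56, Prtn3 at 5.14 and Ctsg at 3.42. The secondary genes stood at 4.31 for Ltf, 5.38 for Lcn2, 5.52 for Camp and 4.27 for Ngp. S100a8 stood at 7.82 and S100a9 at 5.62. On this scale the median of all values, 4.53, serves as the cut. Mpo, Ctsg, Ltf and Ngp lay under it in the YFP-negative array, so their differences from total marrow are lower bounds. Against total marrow 8 of 10 members were called lower (13.2% of all clusters), again all but S100a8 (−4.23, limma adjusted p = 0.309) and S100a9 (−6.98, adjusted p = 0.0721); S100a9 was called in 8 of the alternatives (adjusted p from 0.0162 to 0.0475).

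Mpo was the only member called between YFP-negative and YFP-positive cells, lower by a difference of −3.33 (SE 0.63, limma adjusted p = 0.0373), against 1.36% of clusters called lower. The YFP-negative Mpo value lay below all 3 YFP-positive values on the same scale and within the wild-type range. At 3.91 it was under the cut of 4.53, so the difference is a lower bound. That call was lost with the replicate number as a block (−3.46, adjusted p = 0.121) and when any 1 other array but YFP-positive replicate 3 was left out (adjusted p from 0.0516 to 0.082). Ltf and Lcn2 differed between YFP-negative and YFP-positive cells by 0.00145 and −0.036, with 95% intervals of −0.81 to 0.81 and −2.27 to 2.20. Both Ltf means, 4.31 and 4.31, lay under the cut of 4.53, so the small difference does not show equal levels. The wild-type mean of Ltf, 3.13, lay under it as well. Against wild type 0 of 10 members were called (4.56% of clusters in either direction). The class medians against wild type were 0.005 for the primary, 1.05 for the secondary and 0.54 for the cytosolic genes, and 1 member, Ltf, had an unadjusted p under 0.05 (1.19, limma adjusted p = 0.1), as had 22.3% of clusters.

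Other neutrophil genes were counted from lists to place the members in the granule pathway. Of 9 further azurophil genes, 7 were called lower and 1 higher than total marrow in YFP-positive cells and 6 and 1 in wild-type cells, with median differences of −3.21 and −3.38. Lyz2 (lysozyme) differed by −6.49 and −8.23, Serpinb1a, an inhibitor of the granule proteases, by −6.18 and −6.21, Ms4a3, a gene of granulocyte and monocyte precursors, by −5.77 and −6.16, and Prss57, another serine protease, by −3.21 and −3.38. Cd63, a tetraspanin of lysosomes and azurophil granules in many cell types, was higher by 0.80 and 0.87. Of 12 further specific granule genes, 10 were lower and 1 higher in each group (medians −3.83 and −4.11). Mmp8, a collagenase, differed by −7.28 and −7.46, Pglyrp1, a peptidoglycan-binding protein, by −7.21 and −7.44, Chil3 by −7.19 and −8.18 and Cd177 by −4.51 and −4.87, whereas Hp, the haemoglobin-binding haptoglobin gene, was higher by 1.07 and 0.95. Hp stood at 11.97 to 12.38 in the 6 arrays, against 11.16 and 10.98 in total marrow.

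Genes of gelatinase granules and mature neutrophils were lower in 11 of 11 measured cases of 15 listed, in both groups, with medians of −6.18 and −6.35. Ly6g, the surface marker of mouse neutrophils, differed by −7.66 and −7.77, Retnlg by −7.54 and −7.12, Cxcr2, a chemokine receptor, by −6.52 and −6.40, and Trem1 by −6.32 and −6.52. Their log2 signals summed to 38.8 to 43.8 in YFP-positive and 38.9 to 42.0 in wild-type arrays, against 105 in each total marrow array. Such sums of log2 values, here and below, do not give a fold difference. In every sorted array of these groups 9 to 11 of the 11 lay under 4.43. Ly6g stood at 2.81 to 3.10 in all 6, also in the arrays with high S100a8 and S100a9. Retnlg stood at 5.31 in wild-type replicate 1 and at 3.58 to 4.08 in the other 5. Mmp9, the gelatinase gene, is named after its values were seen. It stood at 3.97, 7.03 and 8.46 in YFP-positive and at 6.16, 5.82 and 5.49 in wild-type arrays. Mmp9 was thus highest in YFP-positive replicate 3, where S100a8 and S100a9 were lowest of their group.

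**Figure D5:**
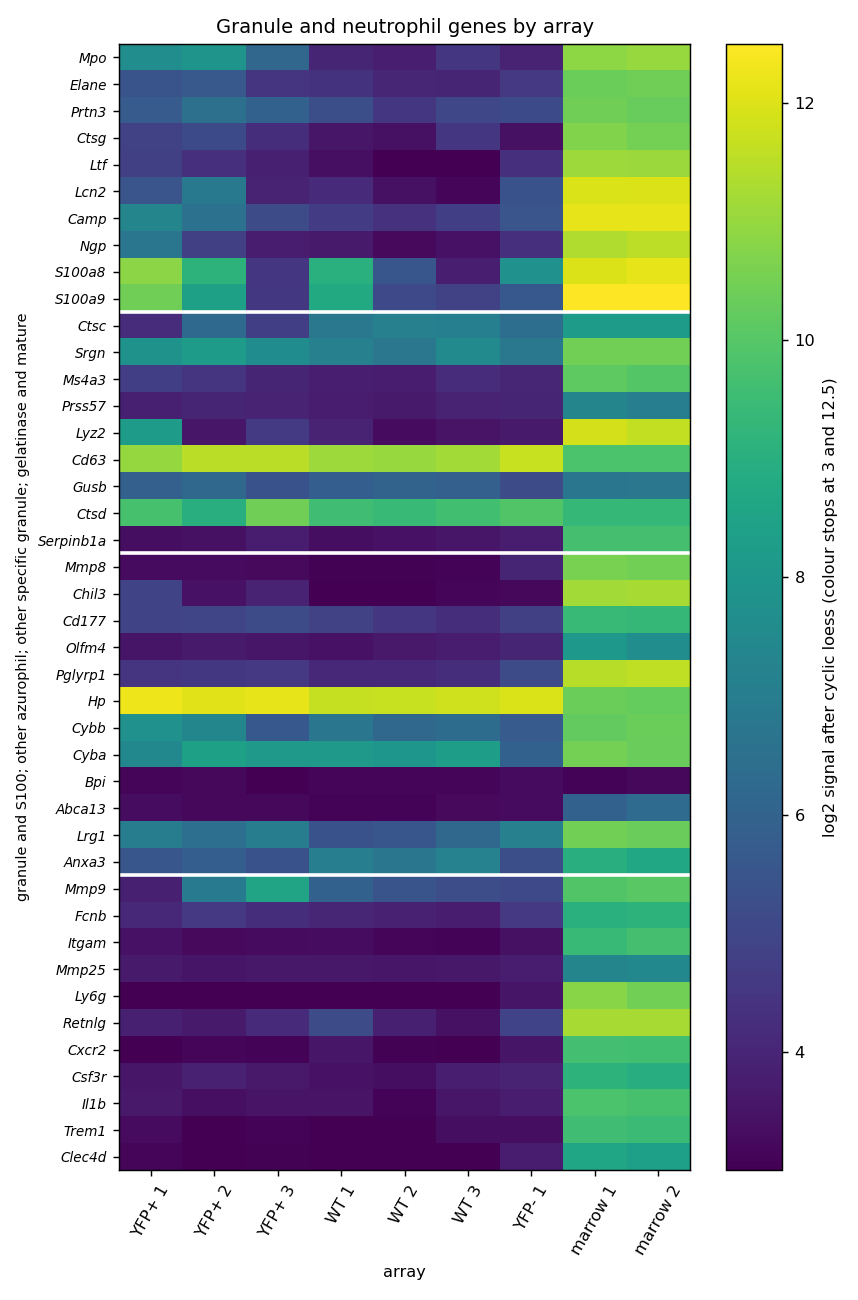
Log2 signal after cyclic loess (colour) of the 10 genes and of 3 lists of other neutrophil genes (rows) on the 9 arrays (columns); white lines part the lists. Total marrow is bright for nearly all rows, and Cd63 and Hp are brighter in sorted cells. Ly6g and Trem1 are dark in every sorted array, including those with bright S100a8 and S100a9. Mmp9 differs between sorted arrays and is brightest in YFP-positive replicate 3.

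Leucocyte genes were also read on the arrays in which members were high, and these were chosen after their values were seen. Lyz2 stood at 8.34 in YFP-positive replicate 1 and at 3.57 to 4.55 in the other 5 arrays, and Chil3 at 5.0 against 3.11 to 3.91. Cybb, a subunit of the phagocyte oxidase, was at 7.98, 7.47 and 5.52 in YFP-positive and 6.99, 6.56 and 6.62 in wild-type arrays. In YFP-positive replicate 2, the array with the highest Mpo, Elane, Prtn3, Ctsg and Lcn2 of the sorted cells, Mcpt8 and Fcer1a, both basophil genes, stood at 6.39 and 4.98. In the other 5 arrays Mcpt8 stood at 2.99 to 4.71, highest in wild-type replicate 3, and Fcer1a at 3.13 to 3.33. The other markers of that list, Prg2, Epx, Cpa3 and Ms4a2, stood at 3.94, 3.78, 4.20 and 3.53 in YFP-positive replicate 2, all under 4.43. Mcpt8 lies next to Ctsg in the genome. Monocyte and macrophage markers were lower than total marrow in 10 of 10 cases, with 8 or 9 of 10 under 4.43. Their log2 signals summed to 39.0 to 41.2 in YFP-positive and 36.1 to 37.8 in wild-type arrays, against 74.2 and 78.5. Mast cell, basophil and eosinophil markers were lower in 6 of 6 cases, with log2 sums of 20.2 to 26.8, 19.2 to 21.8 and 43.6 to 43.8 in the same order. Progenitor markers were lower in 4 of 5 cases, with log2 sums of 22.1 to 24.1, 21.4 to 23.3 and 37.8 to 38.7. The part of these cells in the levels of the members was not tested.

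Of 10 regulators of granulocyte formation, 6 were lower and 2 higher than total marrow in each sorted group, with medians of −1.07 and −0.81. Spi1, which encodes PU.1, differed by −5.83 and −6.06, Myb by −5.08 and −5.33 and Cebpe, which encodes the C/EBP factor needed for secondary granules, by −4.00 and −4.40, while Irf8, a factor of monocyte fate, differed by −1.95 and −2.24. Runx1 and Cebpa were the 2 higher genes, by 2.44 and 2.57 and by 1.75 and 2.14. Cebpa stood at 8.78 to 9.92 in the 6 arrays and at 7.63 and 7.39 in total marrow. Among the C/EBP genes, Cebpe was lower, Cebpa was higher, and Cebpb (−0.41 and −0.53) and Cebpd (0.55 and 0.31), named after their values were seen, were not called.

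The other S100 genes had median differences of −0.10 and −0.08 over 14 genes, with 2 called lower and 2 higher in each group. S100a4 and S100a6, calcium-binding proteins of motile and dividing cells, differed by −4.72 and −4.77 and by −2.24 and −1.13. S100b differed by 5.60 and 5.42 and S100a16 by 3.20 and 3.84. Of 9 receptors and inhibitors of granule proteins, 4 were called higher and 2 lower in each group. A2m, a broad protease inhibitor, was higher by 3.30 and 4.13, its receptor gene Lrp1 by 3.04 and 2.85, Tlr4, a receptor of S100A8 and S100A9, by 1.46 and 1.62, and Slc22a17, the lipocalin-2 receptor gene, by 1.39 and 1.27. Slpi, an inhibitor of elastase and cathepsin G, differed by −5.05 and −5.62, and Cd14, the partner of Tlr4 that is also a monocyte gene, by −2.43 and −2.86. Between YFP-positive and wild-type cells 0 genes of these lists were called, as for the members. Serpina3n, an inhibitor of cathepsin G that was not called and is named after its values were seen, stood at 11.48, 4.81 and 8.03 in YFP-positive arrays and at 4.61 to 4.70 in wild-type arrays.

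The genes whose levels followed each class most closely over the 6 YFP-positive and wild-type arrays were taken from 4418 candidates that were above the stated cut in total marrow and ranged over at least 1 log2 unit. For the primary class they were led by Akr1c13 (Pearson r 0.971, Spearman rho 1), an aldo-keto reductase. Lcp1, the actin-bundling plastin of leucocytes, came next by r (0.961, rho 0.943), but it stood at 3.27 to 4.42 on the 6 arrays, all under the stated cut, so nothing is read from its likeness. Ngrn, Tbrg3, P2ry14 and Chd7 followed (r from 0.948 to 0.924), with Tbrg3 and Chd7 under the stated cut on some of these arrays. Srgn, the proteoglycan serglycin that packs proteases into granules, ranked 7 at r 0.916 and rho 0.943, and Slx4ip ranked 8 (r 0.9). The genes could lie above or below total marrow. Akr1c13 stood at 5.56 to 6.63 on the 6 arrays against a marrow mean of 4.83, and Srgn at 7.18 to 8.31 against 10.98. For the secondary class the leading genes were Anxa11 (r 0.981, rho 0.6) and Ngrn (r 0.97, rho 0.943). Slc2a13, Slc38a10, Akr1c13, Ltn1 and Babam2 followed (r from 0.954 to 0.934), and Cfb, complement factor B, ranked 8 (r 0.924, rho 0.829). The secondary class mean itself lay under the stated cut in YFP-positive replicate 3 (4.12) and in the wild-type arrays (4.15, 3.78 and 3.77). Likeness to this class therefore rests mainly on YFP-positive replicates 1 and 2 set against values under the cut. For the S100 pair the leading genes were Gpank1 (r 0.966, rho 0.928) and Tcf24 (r 0.953, rho 0.771). Tmem97, Ypel1 and Zfp414 followed (r from 0.951 to 0.936). Laptm5, a lysosomal protein of blood cells, ranked 6 at r 0.927 and rho 0.943, before Ubxn7 and Dennd10 (r 0.923 and 0.92). Tcf24 lay under the stated cut on 2 and Laptm5 on 3 of the 6 arrays, and Tmem97 did in YFP-positive replicate 3 (4.38). The primary class mean lay under the cut in wild-type replicate 2 (4.22) and the S100 mean in YFP-positive replicate 3 (4.37). Akr1c13 and Ngrn were among the first 8 for both granule classes. These are the highest of 4418 values over 6 arrays that share a platform and a sorting gate, and they are given as a description.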

How the data were processed

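The deposited log2 signals, 1 per transcript cluster and array, were made by the authors with Affymetrix Expression Console 1.3.1 and RMA, per the submitters' processing notes, after amplification of the RNA (NuGEN Ovation Pico WTA System V2), per the labels' protocols. Whether all arrays were summarised together is not given in the sources used here. Symbols came from the platform annotation: 21789 of 35556 clusters had 1 symbol and were tested, 1621 had several and 12146 none. All 10 members matched the RefSeq gene table with the same symbol.

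All 9 arrays entered each fit in limma 3.58.1 (R 4.3.3), with a mean per group and default eBayes; residual degrees of freedom were 5, and prior ones 2.5 for the deposited and 2.27 for the cyclic loess values. The fitting code was run on simulated data with independent normal noise at the spread of the deposited values. Cyclic loess values were not simulated, so that run does not bear on the fits that used them. Tests were two-sided, adjusted by Benjamini-Hochberg over all 21789 clusters and called at 0.05. Comparisons with the YFP-negative array used cyclic loess values, since its scale shift was known from earlier work. The members, gene lists, marker lists and motifs were chosen with earlier results of these data known. Named genes were all members, up to 4 genes of each gene list with the largest change among those called against total marrow in both groups, up to 2 called the other way, and the 8 genes most like each class over 6 arrays; a gene with several clusters was taken at its brightest. The lists share Myb and Ms4a3 with the progenitor markers. Alternatives were other normalizations, a filter on dim clusters, trended and robust variance, array weights, the replicate number as a block, fits of the 2 groups alone, and each replicate left out in turn. On arrays, depth has no counterpart, so precision is limited by how many arrays a group has.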

Additional observations from a re-analysis of the deposited data

Results flagged for a closer look

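Mpo differed between the YFP-negative and the YFP-positive cells of the same reporter strain by −3.33 log2 units (cyclic loess values, limma, Benjamini-Hochberg adjusted p = 0.0373), a difference between groups that was tested directly. It was lower on 1 of 1 YFP-negative arrays than on all 3 YFP-positive arrays. Its YFP-negative value lay under the cut of 4.53, so the difference is a lower bound. The call was lost with the replicate number as a block, and when any 1 other array but YFP-positive replicate 3 was left out. An effect of the YFP-negative array and an effect of the group cannot be told apart.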

How the results depend on the processing

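Against total marrow no member changed direction under any alternative run; 8 to 9 members were called in YFP-positive cells, 8 to 10 in wild-type cells and 8 to 10 in YFP-negative cells. The count of all clusters called moved from 6422 to between 3636 and 7394 for YFP-positive, from 5291 to between 3398 and 7022 for wild-type and from 5719 to between 3817 and 15666 for YFP-negative cells. Without 1 replicate, the secondary class median of YFP-positive cells ran from −7.01 to −5.90. Between YFP-positive and wild-type cells 0 to 1 members and 0 to 26 clusters were called, and S100a9 ran from −0.12 to 2.99 without 1 replicate.

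The comparisons with the YFP-negative array rest on its normalization. As deposited, its primary and secondary medians were −7.90 and −8.12 against total marrow, −2.36 and −1.61 against YFP-positive cells (6 members called) and −1.37 and −0.31 against wild type (2 called). As deposited, Ltf was −1.29 against YFP-positive cells, and Elane −1.0, Prtn3 −1.19, Ltf −0.21, Camp −0.41 and Ngp −0.62 against wild type. Quantile normalization turned Ltf (−0.32) and Lcn2 (0.041) against YFP-positive cells and Elane (−0.012) against wild type, and median centring turned Ltf (−0.18) and Prtn3 (−0.11). With array weights Ltf was −0.075 and 1 member was called against wild type. All clusters called ran from 5 to 16522 (867 reported) against YFP-positive cells and from 6 to 16353 (994 reported) against wild type. Without 1 replicate, 0 to 2 members were called against YFP-positive cells and 0 to 1 against wild type. The ranges against YFP-positive cells were −1.10 to −0.0072 for the secondary median, −0.79 to 0.68 for Lcn2, −2.17 to 1.01 for S100a8 and −0.23 to 0.25 for Ltf. Against wild type they were −1.32 to 0.63 for S100a9, −0.030 to 0.37 for Prtn3 and −0.34 to 0.024 for Mpo. The cause of these changes was not tested.

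Whether replicate numbers pair the samples is not settled. Over all clusters, deviations of same-numbered YFP-positive and wild-type arrays correlated at −0.0578, −0.0255 and −0.0067. S100a8 and S100a9 nevertheless fell from replicate 1 to replicate 3 in both sorted groups. With the replicate number as a block, S100a8 in wild-type cells differed from total marrow by −4.60 (SE 0.87), against −6.16 (SE 2.05) without it. S100a9 in YFP-positive cells differed by −4.07 (SE 1.02), against −5.28 (SE 1.81). S100a8 in YFP-negative cells differed from total marrow by −5.08 with the block, against −4.23 without it. With the replicate block, 0 members were called between YFP-negative and YFP-positive cells, Ltf was −0.31 there and S100a8 −0.63 against wild type, and S100a9 in YFP-positive and S100a8 in wild-type cells were also called against total marrow (limma adjusted p = 0.0384 and 0.016). Both were likewise called with trended and robust variance (0.0314 and 0.0327), array weights (0.0362 and 0.0105), the filter on dim clusters (0.032 and 0.0331) and without YFP-positive replicate 1 (0.023 and 0.0484). S100a8 in wild-type cells was also called with the 2 groups alone (0.0212) and without YFP-positive replicate 3 (0.0193) or wild-type replicate 1 (0.0401). Each member has 1 cluster, so no other cluster could stand for it. Array weights ran from 0.311 for YFP-positive replicate 3 to 1.69 for total marrow.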
